A study of Mus musculus with 6 samples.

Results

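Dach1, P2ry1, Lypd1, Ngef, Sdk1, Nexn and Cabp7 are 7 genes of varied function that stood lower in newborn Tle4-/- mutant cortex than in wild-type cortex. They were picked by name from the 23621 genes of the deposited table because they were lower in the mutant in these same libraries. The genotype difference of these 7 genes is therefore a description, and no test is read from it. Cortex RNA was sequenced from 3 Tle4-/- null mutants and 3 wild-type littermates, all at postnatal day 0 and all on a mixed background of C57BL/6J, 129S6 and CD1. Tle4, the gene mutated here, encodes a co-repressor of the Groucho family that deep-layer neurons make. No protein was measured in these libraries. The series asks how cortical projection neurons acquire their identities. The labels give no litter, pooling or sex for a library and no detail of the null allele, and nothing ties the samples to separate litters, so p-values measure only the spread between these samples.

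The 7 proteins act at different places in a neuron. Dach1 is a nuclear transcription cofactor, the mammalian counterpart of the Drosophila dachshund protein, which works in a network with sine oculis homeobox and Eya proteins. At the cell surface, P2ry1 is a receptor for ADP that couples to Gq and releases calcium from internal stores, Lypd1 is a lipid-anchored protein of the Ly6 family that binds nicotinic acetylcholine receptors, and Sdk1 (sidekick 1) is an immunoglobulin-superfamily protein that sticks to copies of itself on neighbouring cells and is known from synapse matching in the retina. Inside the cell, Ngef (ephexin 1) is a guanine nucleotide exchange factor for small GTPases that links Eph receptors to growth cone collapse, Cabp7 is an EF-hand calcium-binding protein of the Golgi that inhibits the lipid kinase Pi4kb, and Nexn (nexilin) binds actin filaments and is best known from the muscle Z-disc.

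The libraries held 21486851, 19155168 and 19366414 counts in the mutant and 20027752, 21632607 and 18617408 counts in the wild type. Tle4 had 1481, 1659 and 1664 counts in the mutant and 3884, 3171 and 3091 counts in the wild type, and it fell by 1.06 on the log2 scale (SE 0.14, edgeR adjusted p = 0.0377). With 1 library left out at a time its adjusted p ran from 0.0306 to 0.162, and it was under 0.05 only without wild-type replicate 2. Tbr1, a marker of cortical glutamatergic neurons, had at least 7010 counts in every library. Xist had 66194 to 79080 counts in the mutant and 11 to 37 in the wild type, while the Y-linked Ddx3y had 1, 0 and 2 counts in mutant replicates 1, 2 and 3 and 1463, 1891 and 2 in wild-type replicates 1, 2 and 3. Wild-type replicate 3 thus had few counts of both, and sex and genotype cannot be told apart in these libraries. Col1a1, a collagen of the meninges, had 753 to 1470 counts in the mutant and 28, 2092 and 618 in wild-type replicates 1, 2 and 3. Ttr, made by the choroid plexus, had 1789 counts in mutant replicate 3 and at most 5 in any other library. Xist, Ddx3y, Col1a1, Ttr and the choice of Tbr1 as a tissue check were taken after their values were seen.

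All 7 genes were measured well enough to enter the comparison of 16274 genes and lie on 5 chromosomes. Promoter windows of RefSeq on GRCm38.p6, from 250 bases before to 50 bases after an annotated start, were found for 6 of the 7 genes, with 3 windows for Lypd1 and 1 for each of Dach1, P2ry1, Sdk1, Ngef and Cabp7. Because Groucho co-repressors are brought to DNA by partners that include Tcf/Lef, Runx and Hes proteins, both strands were searched for CTTTGAT (Tcf/Lef), TGTGGT (Runx) and CACGCG (Hes). Each motif matched once, in a different gene, and no 2 matches overlapped. CTTTGAT was in the Dach1 window, starting 10 bases after the start, against 3.73% of 32544 promoter windows. TGTGGT matched on the opposite strand, as ACCACA, in 1 of the 3 Lypd1 windows, 51 bases before that start, against 16.7% of all windows. CACGCG matched on the opposite strand, as CGCGTG, 45 bases before the Sdk1 start, against 9.33% of all windows. These letters were not in the P2ry1, Ngef and Cabp7 windows. The 3 windows with a match and that of Cabp7, the gene with the largest fold difference, are printed 5′ to 3′ along the gene's strand, with the matched letters in capitals. They are chr14:98169716-98170015 (minus strand) for Dach1, chr1:125912165-125912464 (minus) for Lypd1, chr5:141241284-141241583 (plus) for Sdk1 and chr11:4747130-4747429 (minus) for Cabp7.
Dach1: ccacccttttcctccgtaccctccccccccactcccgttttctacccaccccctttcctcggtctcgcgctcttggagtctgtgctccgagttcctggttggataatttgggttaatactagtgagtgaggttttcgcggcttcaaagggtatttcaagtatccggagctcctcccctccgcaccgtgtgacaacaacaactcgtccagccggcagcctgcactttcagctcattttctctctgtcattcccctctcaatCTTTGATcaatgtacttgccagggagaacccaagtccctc
Lypd1: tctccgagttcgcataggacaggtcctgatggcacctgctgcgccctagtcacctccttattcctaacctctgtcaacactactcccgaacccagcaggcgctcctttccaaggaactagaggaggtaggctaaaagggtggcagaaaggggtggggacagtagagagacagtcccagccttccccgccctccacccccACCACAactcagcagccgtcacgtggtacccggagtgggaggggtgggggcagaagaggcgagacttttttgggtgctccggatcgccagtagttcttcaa
Sdk1: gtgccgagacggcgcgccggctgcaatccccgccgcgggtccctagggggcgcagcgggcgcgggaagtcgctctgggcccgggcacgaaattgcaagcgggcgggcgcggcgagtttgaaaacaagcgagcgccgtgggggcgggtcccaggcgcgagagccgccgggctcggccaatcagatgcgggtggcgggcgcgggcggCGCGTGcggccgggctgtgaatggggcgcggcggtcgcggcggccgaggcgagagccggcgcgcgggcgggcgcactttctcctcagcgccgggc
Cabp7: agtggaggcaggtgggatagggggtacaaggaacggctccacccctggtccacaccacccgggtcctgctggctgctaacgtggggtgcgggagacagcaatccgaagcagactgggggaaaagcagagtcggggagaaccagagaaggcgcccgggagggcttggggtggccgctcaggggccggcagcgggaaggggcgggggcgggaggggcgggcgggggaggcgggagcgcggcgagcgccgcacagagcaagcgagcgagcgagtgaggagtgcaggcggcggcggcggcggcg
A match is a run of letters and not a shown binding site. The windows differed in base composition: G and C made up 54.0% of the Dach1 window, 78.3% of the Sdk1 window and 73.0% of the Cabp7 window, against a median of 53% over all windows.

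In the nucleus, Dach1 (ENSMUSG00000055639, chromosome 14 from 97786853 to 98169765 on GRCm38, minus strand) had 352, 250 and 252 counts in the mutant and 441, 615 and 647 counts in the wild type. Scaled by library size with TMM factors, its level was 16.5, 13.1 and 13.1 CPM (counts scaled to an equal library size) in the mutant and 22.5, 27.6 and 34.8 CPM in the wild type. The highest mutant library, replicate 1, stood at 0.733 of the lowest wild-type library, also a replicate 1, so the genotypes did not overlap. The mutant mean was 14.2 ± 1.94 CPM and the wild-type mean 28.3 ± 6.19 CPM (SD, n = 3 each), a log2 fold change of -0.99 (SE 0.19, mutant over wild type). No other gene of the deposited table overlaps the Dach1 locus, which spans 382.9 kb.

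Among the receptors and surface proteins, P2ry1 (ENSMUSG00000027765, chromosome 3 from 61002795 to 61008982, plus strand) had 5.05, 6.28 and 3.23 CPM in the mutant and 10.2, 11.4 and 15.6 CPM in the wild type, from 108, 120 and 62 counts in the mutant and 201, 254 and 290 in the wild type. Mutant replicate 3 was lowest and wild-type replicate 3 highest, and the genotypes did not overlap. The means were 4.85 ± 1.53 CPM in the mutant and 12.4 ± 2.81 CPM in the wild type (SD, n = 3 each), a log2 fold change of -1.35 (SE 0.27). An antisense gene, Gm37035, covers 992 exonic bases of P2ry1, or 23.1% of them, and was itself counted only 1, 8 and 7 times in the mutant and 10, 15 and 2 times in the wild type. Whether counting used the strand is not given in the sources used here, so reads of such opposite-strand pairs cannot be told apart.

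Lypd1 (ENSMUSG00000026344, chromosome 1 from 125867622 to 125913101, minus strand), the nicotinic receptor partner, had 503, 392 and 345 counts in the mutant and 764, 752 and 784 counts in the wild type. Its level was 23.5, 20.5 and 17.99 CPM in the mutant and 38.9, 33.8 and 42.1 CPM in the wild type, with no overlap. The mean was 20.7 ± 2.77 CPM in the mutant and 38.3 ± 4.23 CPM in the wild type (SD, n = 3 each), a log2 fold change of -0.89 (SE 0.15). On the opposite strand, Gpr39, a zinc-sensing receptor, shares 1202 exonic bases with Lypd1 (17.1% of its exonic length). Gpr39 had 10, 5 and 3 counts in the mutant and 14, 18 and 18 in the wild type, which were also apart and far below the 345 counts of the lowest Lypd1 library.

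Sdk1 (ENSMUSG00000039683, chromosome 5 from 141241490 to 142215586, plus strand), the adhesion molecule and the longest locus at 974.1 kb, had 24.1, 23.8 and 22.6 CPM in the mutant and 37.8, 41.8 and 34.7 CPM in the wild type. These came from 516, 454 and 434 counts in the mutant and 743, 931 and 645 in the wild type. The 3 mutant libraries lay closer together than those of any other of the 7 genes, with a coefficient of variation of 3.33%, below the 4.62% that counting alone gives at this depth. The means were 23.5 ± 0.784 CPM in the mutant and 38.1 ± 3.57 CPM in the wild type (SD, n = 3 each), a log2 fold change of -0.70 (SE 0.12). Gm43557, Gm43556 and Gm43708 lie within Sdk1 on the other strand, share no exonic base with it and had at most 13 counts in any library.

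Of the intracellular signalling proteins, Ngef (ENSMUSG00000026259, chromosome 1 from 87476834 to 87573870, minus strand) had the most counts, with 1229, 819 and 893 in the mutant and 1708, 1495 and 1589 in the wild type. Its level was 57.5, 42.9 and 46.6 CPM in the mutant and 87.0, 67.1 and 85.4 CPM in the wild type. Of the 7 genes it came nearest to overlap: mutant replicate 1 stood at 0.857 of wild-type replicate 2. The means were 49.0 ± 7.61 CPM in the mutant and 79.8 ± 11.05 CPM in the wild type (SD, n = 3 each), a log2 fold change of -0.70 (SE 0.15). Neu2, a sialidase gene on the opposite strand, shares 123 exonic bases with it (3.15%) and had at most 5 counts in any library.

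Cabp7 (ENSMUSG00000009075, chromosome 11 from 4736892 to 4746778, minus strand), the Golgi calcium sensor, had the fewest counts and the largest fold difference. It had 25, 28 and 38 counts in the mutant and 137, 117 and 107 in the wild type, which gave 1.17, 1.47 and 1.98 CPM in the mutant and 6.98, 5.25 and 5.75 CPM in the wild type. The highest mutant library stood at 0.377 of the lowest wild-type library. The means were 1.54 ± 0.411 CPM in the mutant and 5.99 ± 0.888 CPM in the wild type (SD, n = 3 each), a ratio of 0.257 and a log2 fold change of -1.96 (SE 0.28). Counting alone gives a coefficient of variation of 18.2% for Cabp7 in the mutant, against the 26.7% found. Zmat5, a zinc finger gene on the opposite strand, overlaps 338 of its exonic bases (12.9%) and had more counts, 223, 179 and 157 in the mutant and 182, 148 and 112 in the wild type, with the genotypes overlapping and the mean not lower in the mutant.

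Nexn (ENSMUSG00000039103, chromosome 3 from 152236982 to 152266350, minus strand), the actin-binding protein, had 103, 75 and 106 counts in the mutant and 246, 182 and 200 counts in the wild type. This was 4.82, 3.92 and 5.53 CPM in the mutant and 12.5, 8.17 and 10.7 CPM in the wild type, again without overlap. The means were 4.76 ± 0.803 CPM in the mutant and 10.5 ± 2.19 CPM in the wild type (SD, n = 3 each), a log2 fold change of -1.14 (SE 0.23). Gm43185, on the same strand, shares 287 exonic bases with Nexn (7.50%) and had 3, 6 and 2 counts in the mutant and 3, 3 and 19 in the wild type. Since Nexn is also a gene of contractile cells, its order was set beside the summed level of 10 mural cell markers. That sum was 191, 249 and 211 CPM in the mutant and 148, 268 and 175 CPM in the wild type. Wild-type replicate 1 was lowest for the mural markers and highest for Nexn, while wild-type replicate 2 was highest for the markers and lowest for Nexn. The part of mural cells in the Nexn difference was not tested.

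**Figure D1:**
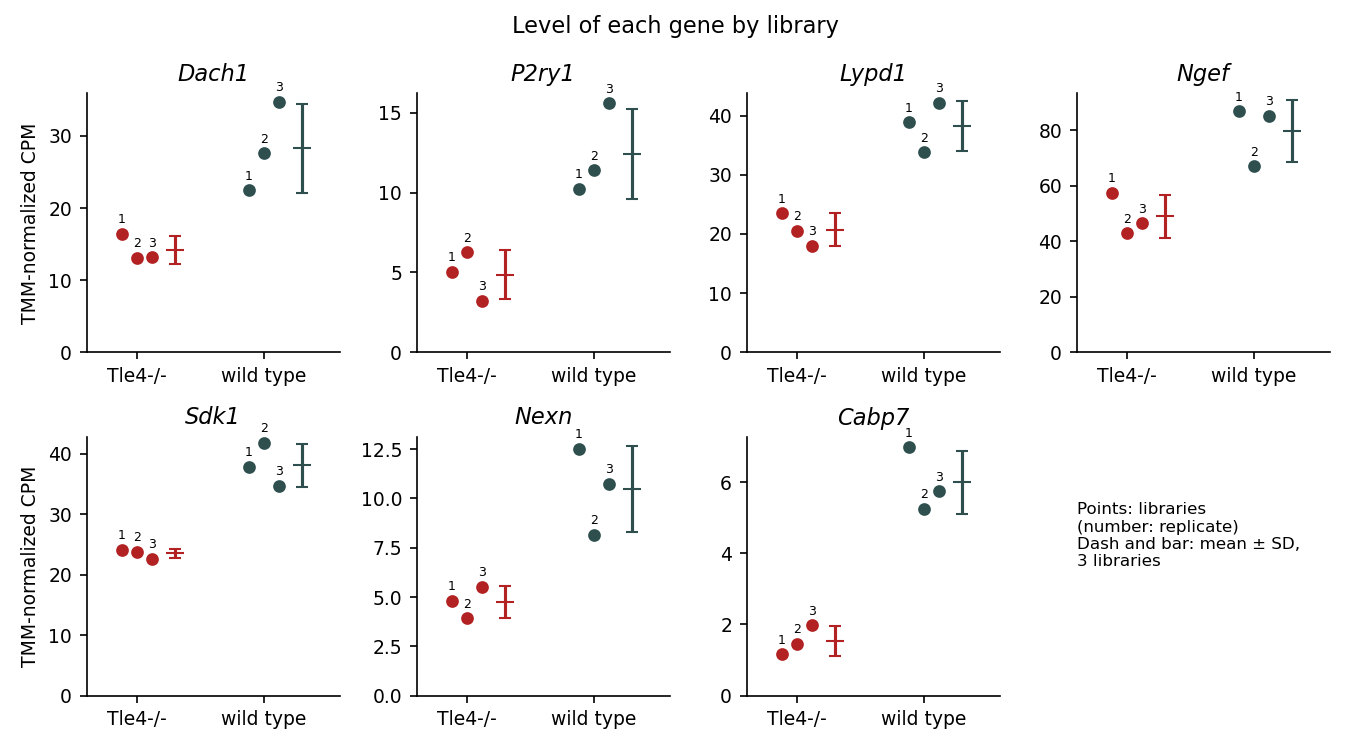
Level of each of the 7 genes in TMM-normalized CPM (vertical axes, each from 0) in the 3 Tle4-/- libraries (left) and the 3 wild-type libraries (right); numbers give the replicate, and the dash and bar give mean ± SD. In every panel the 3 mutant points lie below the 3 wild-type points, with the narrowest gap for Ngef and the widest for Cabp7.

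All 7 genes had every mutant library below every wild-type library, as did 611 of the 16274 genes tested (3.75%). edgeR's quasi-likelihood test with Benjamini-Hochberg adjustment put 18 genes past 0.05 (0.111%), 10 of them lower in the mutant (0.0614%) and 8 higher (0.0492%), and 1 of the 7 genes, Cabp7, was among the lower ones, which it was not with any 1 library left out. The DESeq2 Wald test put 58 genes past the same threshold (0.356%), 37 of them lower (0.227%), with all 7 genes included. An adjusted p under 0.05 was given to 68 of the 23621 genes in the authors' deposited table. Of these, 43 were lower in the mutant, and 5 of the 7 genes were among them. The adjusted p in the authors' deposited table was 2.2e-05 for Cabp7, 0.00843 for Lypd1, 0.0146 for P2ry1, 0.0190 for Dach1 and 0.0383 for Ngef. In the authors' deposited table Nexn (0.0558) and Sdk1 (0.0871) were above it. Since these values helped to choose the genes, nothing is read from the counts.

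Fold differences ran from -0.70 for Sdk1 to -1.96 for Cabp7 on the log2 scale, with a median of -0.99 against -0.01 over all genes tested, and the central 95% of all genes lay between -0.58 and 0.58. By size, Cabp7 ranked 16th from the lowest of the 16274 log2 fold changes, P2ry1 49th, Nexn 74th, Dach1 112th, Lypd1 151st, Ngef 270th and Sdk1 275th. With 1 library left out at a time, Cabp7 ran from -2.18 to -1.79, P2ry1 from -1.58 to -1.13 and Nexn from -1.29 to -0.99. For the others the range was -1.13 to -0.81 for Dach1, -0.99 to -0.80 for Lypd1, -0.83 to -0.62 for Ngef and -0.76 to -0.62 for Sdk1. No single library decided the size of any of the 7 differences by more than 1.5 times.

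**Figure D2:**
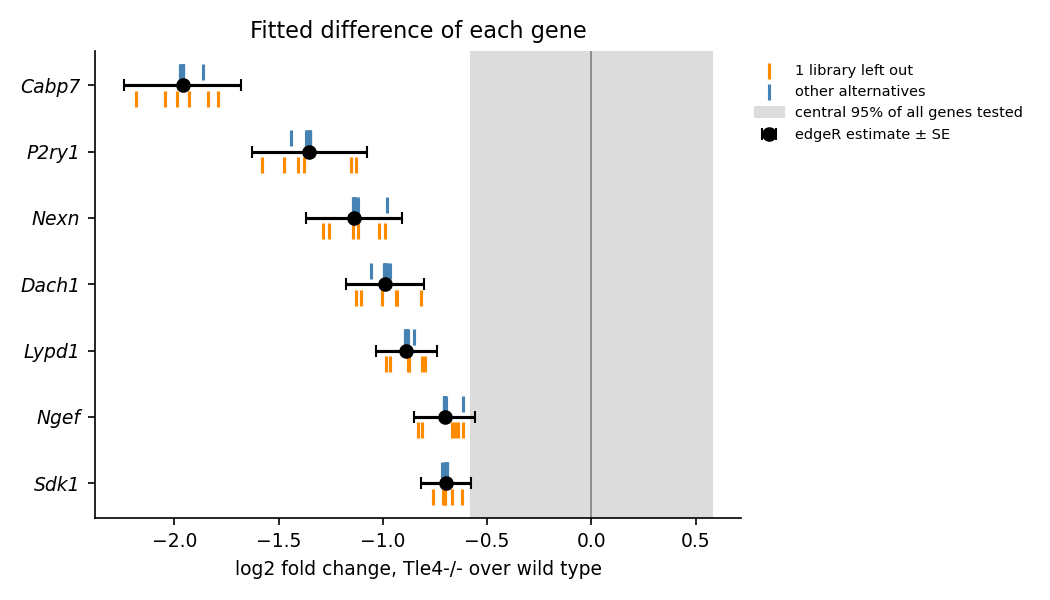
Log2 fold change of each gene, Tle4-/- over wild type (horizontal axis), with the edgeR estimate ± SE in black, fits that leave out 1 library in orange and the other alternative fits in blue; grey marks the central 95% of the 16274 genes tested. The estimates run from -1.96 for Cabp7 to -0.70 for Sdk1, and every alternative value lies below 0.

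Compared per length on the deposited FPKM scale, Ngef had the highest level in both genotypes, 11.7 ± 1.81 FPKM in the mutant and 19.1 ± 2.24 FPKM in the wild type (SD, n = 3 each). Lypd1 followed with 2.01 ± 0.273 FPKM in the mutant and 3.74 ± 0.359 FPKM in the wild type. Dach1 had 1.68 ± 0.229 FPKM in the mutant and 3.36 ± 0.754 FPKM in the wild type, and Sdk1 had 1.82 ± 0.0664 FPKM in the mutant and 2.99 ± 0.337 FPKM in the wild type. In both genotypes the ranges of Lypd1 and Dach1 overlapped, as did those of Dach1 and Sdk1. Cabp7 had 0.582 ± 0.154 FPKM in the mutant and 2.28 ± 0.285 FPKM in the wild type, P2ry1 had 0.612 ± 0.195 FPKM in the mutant and 1.58 ± 0.359 FPKM in the wild type, and Nexn had 0.625 ± 0.103 FPKM in the mutant and 1.38 ± 0.257 FPKM in the wild type. In the wild type all 3 Cabp7 libraries stood above every P2ry1 and Nexn library, whose ranges overlapped, whereas in the mutant all 3 genes overlapped.

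The 7 genes were then set beside marker genes of cortical neuron classes and of striatal projection neurons, a neighbouring cell type that a cortex dissection can include. Levels were taken as log2 CPM minus the mean of the 6 libraries, and a list's value is the mean over its genes. In bulk RNA, fewer cells of a type and less RNA per cell cannot be told apart. Because the genes were chosen for their genotype difference, which also separates some lists, no correlation over the 6 libraries is given.

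Striatal markers were lower in the mutant, with 17 of 18 genes below 0 and a median of -0.62 on the log2 scale. In 8 of the 18, all mutant libraries lay under all wild-type libraries, as in 5 of 11 corticothalamic, 3 of 10 subplate and 4 of 15 interneuron markers and 3.75% of all genes. The log2 fold change was -1.39 for Ebf1, a transcription factor of direct-pathway neurons, and -1.39 for Ikzf1, a zinc finger transcription factor. It was -1.24 for Drd2, the dopamine receptor of indirect-pathway neurons, and none of these 3 was past the threshold. Nearest 0 among the 18 were Drd1 (0.01), Ppp1r1b (-0.05) and Six3 (-0.10), named after their values were seen. The list mean was -0.17, -0.41 and -0.43 in mutant replicates 1, 2 and 3 and 0.31, 0.12 and 0.59 in wild-type replicates 1, 2 and 3. Summed, the 18 markers stood at 648, 521 and 532 CPM in the mutant and 720, 650 and 850 CPM in the wild type, and none was at 0 in every library. Their part in the difference of the 7 genes was not tested.

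Within the genotypes, the 7 genes followed the striatal list to different degrees. Lypd1 had the same order of libraries as the list in both genotypes, with replicate 1 highest and 3 lowest in the mutant and replicate 3 highest and 2 lowest in the wild type. Its values were -0.25, -0.45 and -0.63 in the mutant and 0.47, 0.27 and 0.59 in the wild type. Dach1, P2ry1 and Lypd1 shared with the list its highest wild-type library, replicate 3. P2ry1, Lypd1 and Sdk1 shared its lowest mutant library, also replicate 3. These matches were not particular to the striatal list. The interneuron and subcerebral lists each had 3 genes with their highest wild-type library and 3 with their lowest mutant library. The interneuron list also had the wild-type order of the striatal list. Between the genotypes the list itself differed by -0.68, so little remains of any gene that differed by about as much. Taking the list value off each library left a mutant minus wild-type difference near 0 for Sdk1 (-0.01) and Ngef (-0.03), with the genotypes overlapping. It left -0.21 for Lypd1, -0.29 for Dach1, -0.44 for Nexn, -0.68 for P2ry1 and -1.23 for Cabp7. Of these only Lypd1 and Cabp7 still had no overlap between the genotypes. The gap of Lypd1 was narrow, with a highest mutant value of -0.032 and a lowest wild-type value of -0.0008. Dach1 overlapped as narrowly, with -0.095 and -0.134. The share of all genes without overlap on this scale was not computed. Cabp7, which had the largest fold difference, thus had the largest remainder, at -1.12, -0.58 and -0.15 in the mutant and 0.87, 0.66 and 0.32 in the wild type. For Sdk1 the remainder spread over 0.03, 0.36 and -0.38 in wild-type replicates 1, 2 and 3. What these remainders owe to striatal cells was not tested.

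Corticothalamic markers, genes of layer 6 neurons that project to the thalamus, had 8 of 11 below 0 and a median of -0.37 on the log2 scale, with none past the edgeR threshold, 5 at an unadjusted p under 0.05 and 4 past the DESeq2 threshold. The 4 with the smallest p were Hs3st4 (-0.90), Nxph3 (-1.58), Zfpm2 (-0.82) and Foxp2 (-0.75), an enzyme of heparan sulfate, a secreted neurexin ligand and a pair of transcription regulators. The list mean was -0.21, -0.17 and -0.20 in the mutant and 0.34, 0.12 and 0.13 in the wild type. Ngef, Nexn and Cabp7 had the order of this list in the wild type, with replicate 1 highest and replicate 2 lowest, and none of the 7 had its order in the mutant, where the list was nearly level. The list itself differed by -0.39 between the genotypes. Taking the list value off left -1.53 for Cabp7, -0.97 for P2ry1, -0.73 for Nexn and -0.58 for Dach1. It left -0.50 for Lypd1, -0.32 for Ngef and -0.30 for Sdk1. Dach1 and Ngef then overlapped between the genotypes, and the other 5 genes did not. For Sdk1 the highest mutant value was -0.10 and the lowest wild-type value 0.003. The share of all genes without overlap on this scale was not computed, and the 7 were chosen for being lower, so nothing is read from this.

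Subplate markers, genes of the earliest-born neurons under the cortical plate, split evenly, with 5 of 10 below 0. Ctgf, a secreted growth factor, was the 1 past the threshold (-1.68, SE 0.20, edgeR adjusted p = 0.0145), while Cplx3 (-1.80, a complexin), Nxph4 (-0.89, a neurexin ligand) and Pappa2 (0.62, a protease) were not. Ctgf was past the threshold in 2 of 6 fits with 1 library left out, those without mutant replicate 2 or wild-type replicate 1. The subplate mean was -0.27, -0.06 and -0.11 in the mutant and 0.15, 0.16 and 0.13 in the wild type. Subcerebral markers, genes of layer 5 neurons that project below the cortex, went the other way, with a median of 0.18 and 4 of 10 below 0. Fezf2, the transcription factor that specifies these neurons, was the 1 past the threshold (1.31, SE 0.14, edgeR adjusted p = 0.0117), and Cntn6 (0.79), Ldb2 (0.35) and Neto1 (-0.40) were not past it. Without mutant replicate 3, Fezf2 was not past the threshold (edgeR adjusted p = 0.0628). The subcerebral mean was 0.16, 0.15 and 0.08 in the mutant and 0.03, -0.01 and -0.40 in the wild type.

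Markers of other cells that a cortex sample holds were set beside the 7 genes in the same way. The 11 meningeal markers summed to 212, 440 and 254 CPM in the mutant and to 16.8, 553 and 193 CPM in the wild type, with the genotypes overlapping. None of the 7 genes had the meningeal order of libraries within either genotype. The meningeal list's highest wild-type library was shared by 1 of the 7 and its lowest mutant library by 1. All 7 stayed lower in the mutant in a fit with the meningeal mean as a covariate. Interneuron markers had 11 of 15 below 0 with a median of -0.08 and none past the edgeR or DESeq2 threshold, with 4 at an unadjusted p under 0.05. Their mean was -0.13, -0.03 and -0.16 in the mutant and 0.10, 0.05 and 0.17 in the wild type, which did not overlap. The part of meningeal cells and of interneurons in the difference of the 7 genes was not tested.

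**Figure D3:**
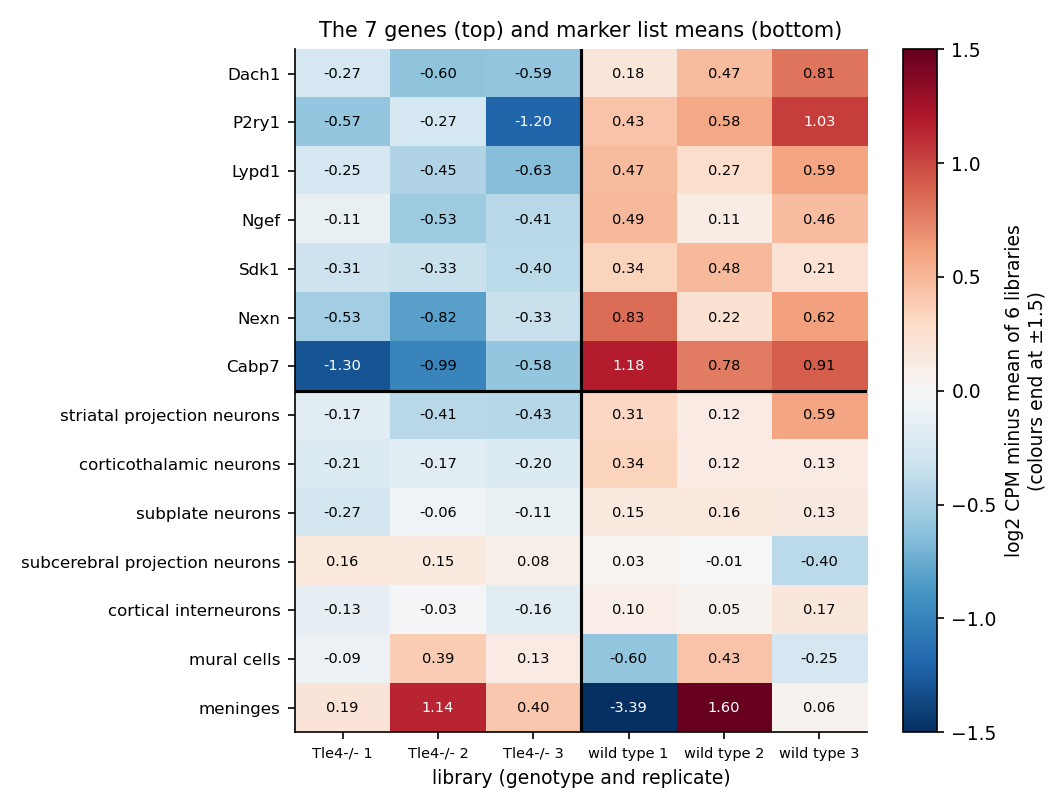
Log2 CPM minus the mean of the 6 libraries for the 7 genes (top rows) and the mean of the same quantity over each marker list (bottom rows), with the 3 Tle4-/- libraries in the left columns and the 3 wild-type libraries in the right columns; colours end at ±1.5. Striatal, corticothalamic, subplate and interneuron rows are negative in the mutant and positive in the wild type like the 7 genes, the subcerebral row is not, and the meningeal row reaches -3.39 in wild-type replicate 1.

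The genes most like each of the 7 were sought among 13201 genes with a mean of at least 1 CPM, leaving out the 7 genes and loci with Gm, Rik or clone names, by the root mean square difference of centred log2 CPM over the 6 libraries. This measure follows the genotype difference as well as the order of the libraries. Dach1 was nearest to Mir22hg (0.14, a microRNA host transcript), Cryab (0.15, a small heat shock protein) and Htr1b (0.15, a serotonin receptor). P2ry1 had no close match, those near it including Rab40c (0.29, a Rab-like GTPase) and Dlx6 (0.29, a homeobox factor of forebrain interneurons and striatal neurons). Lypd1 was nearest to Rilp (0.11, a lysosomal Rab effector), Pcp4l1 (0.13) and the corticothalamic marker Hs3st4 (0.14).

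Ngef was nearest to Clic5 (0.10, a chloride channel family protein), Nos1 (0.11, the neuronal nitric oxide synthase) and the small nucleolar RNA Snora26 (0.12). Sdk1 was nearest to Tspan2 (0.12, a tetraspanin), Eapp (0.13) and Hexdc (0.14, a hexosaminidase). Nexn was nearest to the striatal marker Drd2 (0.17), Nptx1 (0.19, a neuronal pentraxin) and Tle4 itself (0.20). Cabp7 was nearest to the corticothalamic marker Nxph3 (0.24), the subplate marker Cplx3 (0.24) and Stk26 (0.33, a Ste20-family kinase). Among the 7 genes themselves, Lypd1 and Ngef were closest (0.14), followed by Lypd1 and Dach1 (0.18), while Cabp7 was farthest from Ngef and from Sdk1 (0.68 each).

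Family members and partners of the 7 were taken from 7 lists with 109 tested genes in all. None of the 109 passed the edgeR, DESeq2 or limma-voom threshold in either direction, and 3 had an unadjusted edgeR p under 0.05 (2.75%), against 561 of all genes tested (3.45%). Of the 109 genes, 58 were below 0 (53.2%, against 51.3% of all genes), and 5 (4.59%) had every mutant library below every wild-type library, against the 3.75% of all genes.

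Among Dach2 and the sine oculis homeobox and Eya partners of Dach1, 6 of 9 were below 0 and none was past the threshold. The smallest p belonged to Eya3 at 43.7 ± 2.39 CPM in the mutant and 50.04 ± 4.56 CPM in the wild type (log2 fold change -0.19), followed by Eya4 (0.47) and Eya1 (-0.19), all of them phosphatase co-activators of the sine oculis proteins. Of 24 purine receptors and Gq signalling genes around P2ry1, 11 were below 0. Itpr1, the calcium release channel downstream of Gq, stood at 171 ± 19.2 CPM in the mutant and 141 ± 14.8 CPM in the wild type (0.27), above rather than below the wild type. Itpr3, a related channel, was at -0.52 and P2rx6, an ATP-gated channel subunit, at -0.66. P2rx6, P2rx3 and P2rx7 had no overlap between the genotypes, whereas P2rx2 (0.03), P2rx4 (0.08) and P2rx5 (0.01), subunits of the same channel family, were near 0. Apart from P2rx6, these subunits were named after their values were seen.

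For Lypd1, 8 of 16 Ly6 proteins and nicotinic receptor subunits were below 0. Lypd6b, a near relative of Lypd1, had 18.4, 21.6 and 21.1 CPM in the mutant and 32.6, 25.8 and 28.5 CPM in the wild type. Its genotypes did not overlap, but the shift of -0.51 (SE 0.14) did not pass the threshold (edgeR adjusted p = 0.949). Chrna7, the subunit of the alpha-bungarotoxin-binding nicotinic receptor, was at -0.43 and Ly6a, a surface antigen at under 1 CPM in both genotypes, at 0.74. Around Sdk1, the list of Sdk2, the Dscam and Igsf9 adhesion molecules and the Magi scaffolds that bind sidekicks had 5 of 8 below 0, with Dscaml1 at -0.28, Magi1 at 0.17 and Magi2 at -0.15.

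Of the 15 tested ephexins and small GTPase partners of Ngef, 8 were below 0. Epha4, the receptor upstream of ephexin 1, stood at 191 ± 49.9 CPM in the mutant and 249 ± 36.2 CPM in the wild type (-0.38, SE 0.20), a difference within the spread of the libraries. Chn1 (0.15), a Rac GTPase-activating protein, and Tiam1 (-0.16), a Rac exchange factor, were also not past the threshold. Around Cabp7, 11 of 18 EF-hand sensors and Pi4kb were below 0. Hpca (hippocalcin) had 60.4 ± 7.05 CPM in the mutant and 75.3 ± 11.4 CPM in the wild type (-0.32), Hpcal1 was at -0.47, and Ncs1, a calcium sensor that activates Pi4kb, was at -0.17 with no overlap between the genotypes. For Nexn, 9 of 19 actin crosslinkers and Z-disc proteins were below 0, with Actn2, the Z-disc alpha-actinin, at -0.50, Actn1 at -0.17 and the filamin Flna at -0.14.

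**Figure D4:**
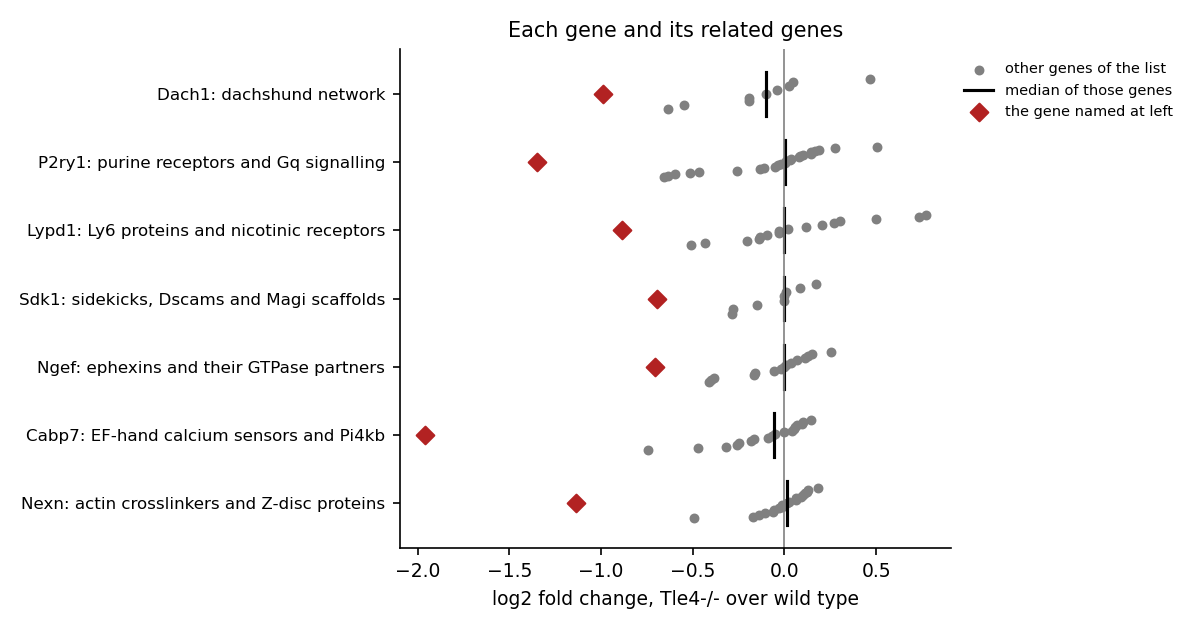
Log2 fold change, Tle4-/- over wild type (horizontal axis), of each of the 7 genes (red diamonds) and of the tested genes of its related list (grey points), with the list median as a black line. The list medians lie between -0.10 and 0.01. In every row the red diamond lies left of all grey points, but the 7 genes were chosen for being lower and the list genes were not.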

How the data were processed

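Per the labels' protocols, total RNA came from flash-frozen postnatal day 0 cortex, and the tools in the submitters' processing notes are HISAT2 2.0.4, StringTie and edgeR, on build GRCm38.p4 or mm10. Not given in the sources used here are the counting program and its strand setting. Per the file headers, the deposited table has counts and FPKM for each gene and library, with a p-value and its adjusted form from the authors' genotype comparison. A date had replaced 25 gene symbols, which were restored from the gene ID.

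Deposited counts were fitted with edgeR 4.0.16 in R 4.3.3 (filterByExpr, TMM factors, robust quasi-likelihood test, 2-sided, Benjamini-Hochberg over all genes tested, threshold 0.05), and the steps were tested on simulated data. Each SE is the size of the log2 fold change divided by the root of F. Marker list means were taken on log2 CPM (prior count 2). Genes overlapping a locus were sought among those of the deposited table, and their exons, strand and type came from GENCODE M21. Alternatives used DESeq2 1.42.0 and limma 3.58.1, other filters and scalings, and each library left out. Before averaging, replicates were compared, and no pair agreed within sampling noise. Depth was 18617408 to 21632607 counts per library.

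The 7 genes, the lists and the tests were chosen with earlier results of these data known. Named besides them are Tle4, overlapping genes, the 3 most alike genes for each, the 3 genes of smallest p from each related list and the 4 of smallest p from the corticothalamic, subplate, subcerebral and striatal lists. Thalamus, callosal, radial glia, endothelium and microglia lists had no gene past the threshold by edgeR or DESeq2, and the choroid plexus list had 2 tested genes. Some results this rule takes in are left out here.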

Additional observations from a re-analysis of the deposited data

How the results depend on the processing

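Under 14 alternatives all 98 values of the 7 genes stayed below 0. How many of the 7 passed the threshold depended on the setting: 1 in the edgeR test, 7 in the DESeq2 Wald test, and 0 with limma-voom, with a filter at a mean of 1 CPM, with the meningeal mean as a covariate, without X, Y and mitochondrial genes, and with any 1 library left out (0 to 0). Over all genes, 18 passed in the edgeR test, 58 in the DESeq2 Wald test, 10 without X, Y and mitochondrial genes, and 8 to 19 with 1 library left out, 8 of them without mutant replicate 3. With a replicate block, 9 genes and 0 of the 7 passed, and Tle4 and Ctgf did not. The replicate numbers do not pair the samples: deviations of same-numbered libraries correlated at -0.06, 0.10 and -0.02. No gene of the related lists passed in any setting run. Depth limits Cabp7 most, with 25 to 38 counts in the mutant.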
